A study of Mus musculus with 16 samples.

Results

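The genes described here are 10 markers of leukocytes measured in colon stroma from which leukocytes had been gated out: Ptprc, Cd52, Jchain, Cd79a, Cd79b, Cd3e, Csf1r, Cd68, Lyz2 and Cd74. They were taken as every probe set that the platform table names for one of these symbols alone, which gave 10 probe sets, 1 for each gene, of 45141 probe sets and 17097 genes on the array. All 10 were kept, with no filter on low signals. The cells came from the colons of 4 Gli1CreERT2-ZsGreen mice on a C57BL/6 background. In these mice a tamoxifen-activated Cre under Gli1 control switches on the green protein ZsGreen, so the label marks cells that used Gli1 when tamoxifen was given and their offspring, which need not use it at the sort. Every mouse received 1 mg tamoxifen into the peritoneum on each of 5 days and was killed on day 6. There was no group without tamoxifen, and no ages are given. Cells negative for Epcam, CD45 and CD31 and positive for gp38 were sorted into 4 populations, named here as Sca1+ reporter-high (Sca1+Gli1ZsGreenhigh), Sca1+ reporter-dim (Sca1+Gli1ZsGreendim), Sca1+ reporter-negative (Sca1+Gli1ZsGreen-) and Sca1- reporter-negative (Sca1-Gli1ZsGreen-). Each population of each mouse was hybridized to 1 array from 2 ng of amplified RNA, 4 arrays per population and 16 in all. The comparisons ask whether the signals of these genes lay above array background and whether they differed between the populations. Whether a signal came from leukocytes or from other cells was not tested.

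The colon lamina propria is crowded with leukocytes. Its plasma cells secrete dimeric IgA, in which the joining chain links the antibody units, and its macrophages take up microbes and dead cells and present peptides on MHC class II. CD45, the product of Ptprc, is a receptor tyrosine phosphatase on the surface of nearly all leukocytes, and a gate against it is the usual way to remove them from a stromal preparation. The members cover these lineages: Ptprc and Cd52 are general leukocyte genes, Jchain, Cd79a and Cd79b belong to plasma and B cells, Cd3e to T cells, and Csf1r, Cd68, Lyz2 and Cd74 to macrophages and antigen-presenting cells.

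Values are array signals in arbitrary units, recovered from deposited scores, and they are compared for 1 gene across arrays and never between genes. The 23 nonspecific control probe sets give the background: the highest of them read 234 to 488 on the 16 arrays, and a gene at or below it on an array has no measured level there. Differences are on the log2 scale, population named first minus population named second, with the standard error (SE) and adjusted p of a limma fit over all 17097 genes on the 16 arrays, called at an adjusted p under 0.05 (Benjamini-Hochberg, two-sided). Signals hold the array background, so that the differences of dim genes are understated. In bulk RNA, fewer cells of a type and less RNA per cell cannot be told apart.

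Array medians lay between 661 and 686, and log2 signals of arrays within a population correlated at 0.968 to 0.994. The arrays labelled mouse 2 did not match one another. The Y-linked genes Eif2s3y and Kdm5d read 3111 and 1639 in the reporter-high array of mouse 2 and 3095 and 1900 in its reporter-dim array, as in all arrays of mouse 1. In the Sca1+ reporter-negative and Sca1- reporter-negative arrays of mouse 2 Eif2s3y read 146 and 197, as in mice 3 and 4. Counts of mice, and the fits with mouse as a block, therefore rest on the labels. The called differences and list counts are also given without the 4 arrays labelled mouse 2. For list genes this alternative was chosen after seeing the data. Sex, read from the Y-linked genes and Xist, was unbalanced. In reporter-high and reporter-dim cells the arrays of mice 1 and 2 were male, the others female. In both reporter-negative populations only the mouse 1 array was male. On the mouse 2 arrays Xist read 487 (reporter-high), 424 (reporter-dim), 18116 (Sca1+ reporter-negative) and 19209 (Sca1-). Without mouse 2 the sexes were the same in each population. The part of sex in the differences of single genes was not tested.

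RNA of the other gated cell types differed between the populations. Epcam, the epithelial gate gene, had signals of 3472 ± 2370 (SD, n = 4) in the reporter-high population, 10281 ± 3827 in the reporter-dim one, 17885 ± 3522 in the Sca1+ reporter-negative one and 17339 ± 5049 in the Sca1- one. A list of 17 epithelial genes had mean log2 signals of 11.64 ± 0.88, 13.26 ± 0.47, 13.97 ± 0.29 and 14.00 ± 0.44 in the same order of populations, and all 17 genes were above the highest control on all 16 arrays. That of 15 endothelial genes was 9.65 ± 0.10, 9.91 ± 0.19, 10.30 ± 0.23 and 10.31 ± 0.52, and that of 12 fibroblast genes 14.92 ± 0.08, 14.81 ± 0.12, 14.40 ± 0.23 and 13.95 ± 0.43. Reporter-high cells had the lowest means for the epithelial and endothelial lists and the highest for the fibroblast list. The part of epithelial, endothelial and fibroblast RNA in the leukocyte differences was not tested.

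The upstream regions of 4 members are shown because Ets-family factors, PU.1 among them, are known regulators of leukocyte genes. RefSeq tables on GRCm38.p6 gave the promoter windows used here, for 6 of the 10 members. Those of Cd79b, Cd52, Csf1r and Cd74 were not searched, so the counts of matches do not cover these genes. The 250 bases before the start were searched on both strands for an Ets-type core, spelled AGGAAGT on one strand and read as ACTTCCT from the other. It was found in 4 of the 6 members, Ptprc, Lyz2, Cd79a and Cd3e, and not in Jchain or Cd68, against 2525 of all 32851 windows of this length (7.7%). An octamer, ATGCAAAT or ATTTGCAT, was also searched and was found in 0 of the 6 members, against 526 of all windows (1.6%). Capitals mark the Ets-type matches. Each line reads 5′ to 3′ on the strand of the gene: Ptprc at chr1:138175306-138175555, minus strand, matches at -113 and -58 from the start, Lyz2 at chr10:117282273-117282522, minus strand, at -100, Cd79a at chr7:24897247-24897496, plus strand, at -55, and Jchain at chr5:88527898-88528147, minus strand, with no match.

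Ptprc: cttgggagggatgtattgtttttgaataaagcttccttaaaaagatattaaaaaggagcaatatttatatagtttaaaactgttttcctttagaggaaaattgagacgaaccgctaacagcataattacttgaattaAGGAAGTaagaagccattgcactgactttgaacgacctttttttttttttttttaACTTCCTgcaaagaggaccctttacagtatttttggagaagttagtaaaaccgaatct
Lyz2: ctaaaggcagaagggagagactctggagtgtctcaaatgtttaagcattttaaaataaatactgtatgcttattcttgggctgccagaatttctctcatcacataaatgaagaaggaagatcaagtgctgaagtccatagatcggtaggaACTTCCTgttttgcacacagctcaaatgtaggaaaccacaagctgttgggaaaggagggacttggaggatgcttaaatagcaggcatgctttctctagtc
Cd79a: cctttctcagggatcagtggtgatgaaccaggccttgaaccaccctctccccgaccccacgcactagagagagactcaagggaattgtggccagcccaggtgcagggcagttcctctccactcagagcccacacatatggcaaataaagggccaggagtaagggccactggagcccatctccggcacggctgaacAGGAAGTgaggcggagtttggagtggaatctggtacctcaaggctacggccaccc
Jchain: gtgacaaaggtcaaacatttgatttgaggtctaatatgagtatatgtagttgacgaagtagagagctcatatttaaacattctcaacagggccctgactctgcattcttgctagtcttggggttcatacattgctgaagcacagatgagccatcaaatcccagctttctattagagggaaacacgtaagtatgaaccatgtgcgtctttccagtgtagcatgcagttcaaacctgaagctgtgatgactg

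A match is a string of letters and not a shown binding site, and its absence from the Jchain window says nothing about the factors that act there. The matches did not divide the members by how they varied. Lyz2 and Ptprc, with a match, and Jchain, with none, were each called in 1 or more comparisons, while Cd79a, with a match, was called in none.

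Across all 4 populations, 4 of the 10 members differed by limma's moderated F test: Cd52 (adjusted p = 0.00483), Lyz2 (0.00735), Jchain (0.0114) and Cd3e (0.04). The background was 32.3% of all genes tested, so 4 of 10 was near the share of any genes that differed. Without mouse 2 none of the 10 passed this test (0 of 10). The share of all genes that passed it without mouse 2 is not given, so this count is no result about the members. The other adjusted p values were 0.0718 for Ptprc, 0.368 for Csf1r, 0.434 for Cd79b, 0.458 for Cd79a, 0.478 for Cd74 and 0.635 for Cd68. Cd3e was at array background on all 16 arrays, so its call describes signals with no measured level.

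**Figure D1:**
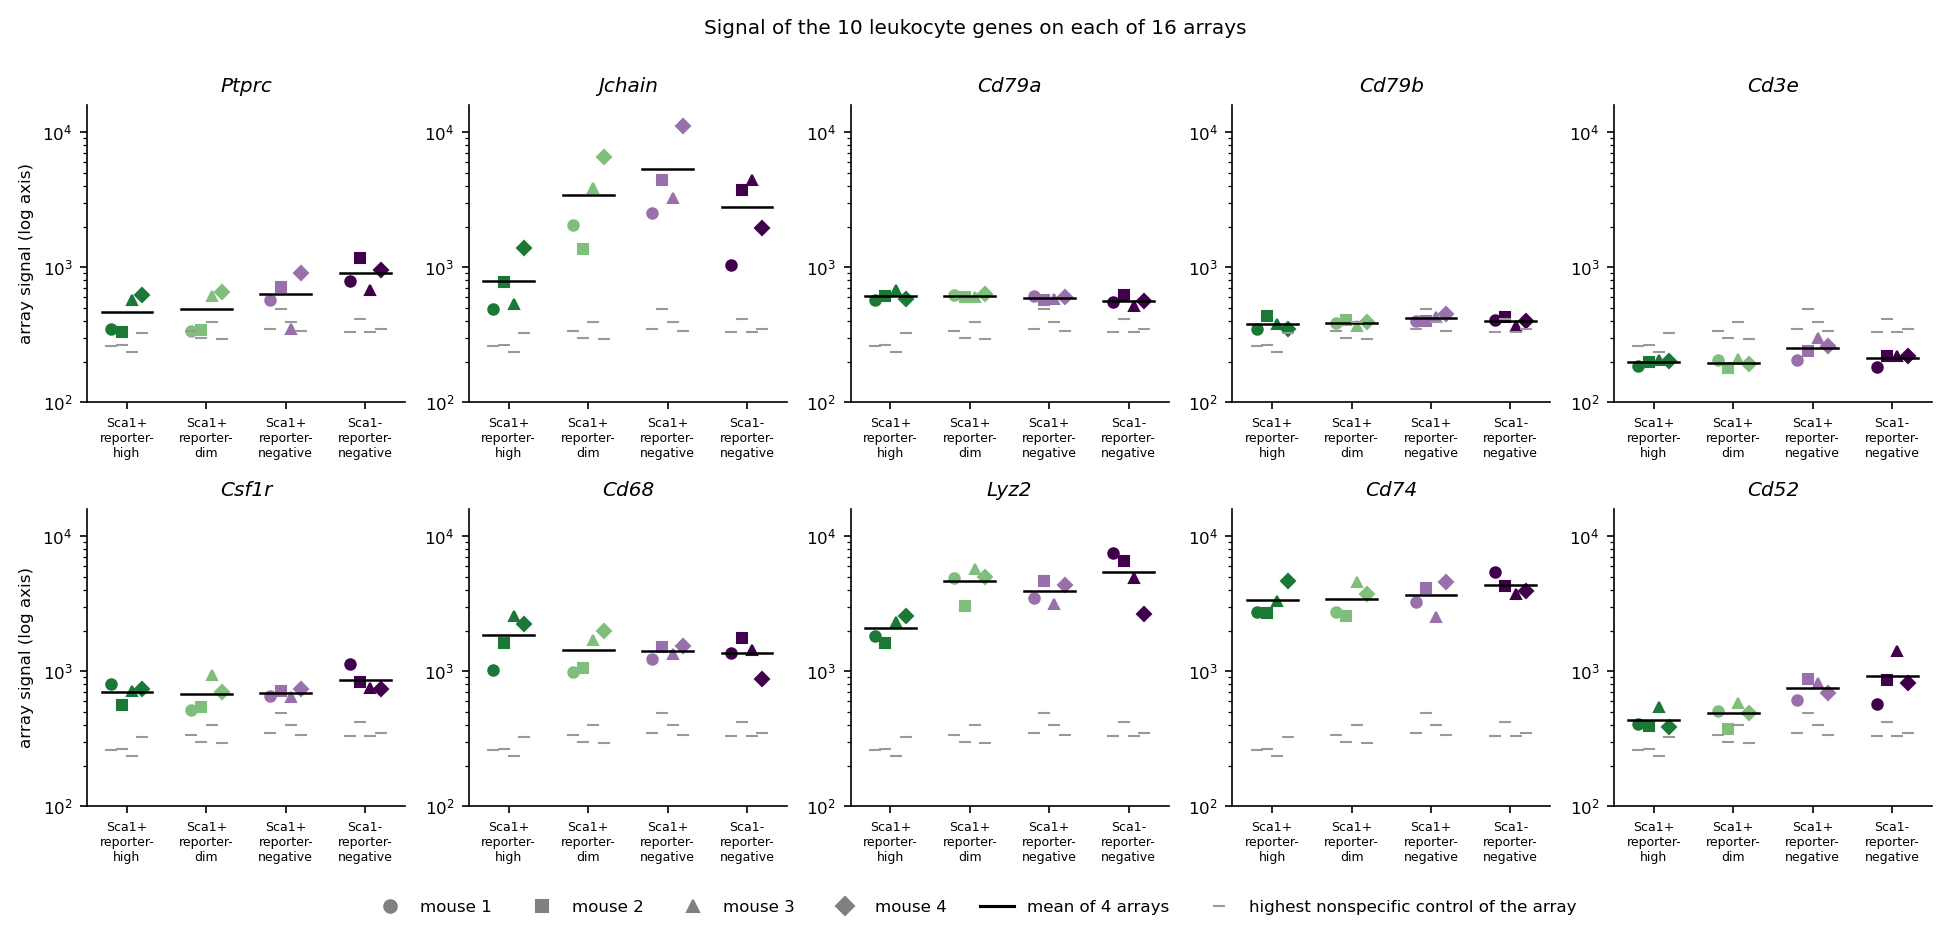
Signal of each of the 10 genes (vertical log axis, arbitrary units) in the 4 sorted populations, 1 point for each array with the mouse as its shape, the mean of 4 arrays as a black line and the highest nonspecific control of each array as a grey dash. Jchain spans 490 to 11032 over the arrays, Cd79a stays between 517 and 674, and Cd3e lies at or below the control on all 16 arrays.

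The plot of signals by population shows 3 kinds of member. Jchain, Lyz2, Cd52 and Ptprc differed between populations by more than the spread between arrays in at least 1 comparison. Cd68, Cd74 and Csf1r varied between arrays of a population by as much as between populations. Cd79a and Cd79b were nearly level, and Cd3e had no level. The 16 arrays differed in signal by 22.51-fold for Jchain, 4.68-fold for Lyz2, 3.78-fold for Cd52, 3.52-fold for Ptprc, 2.94-fold for Cd68, 2.17-fold for Csf1r, 2.15-fold for Cd74, 1.30-fold for Cd79a and 1.29-fold for Cd79b, highest over lowest array.

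When reporter-high cells were set against Sca1+ cells without the reporter, which share Sca1 and differ in the label, 4 of the 10 members were called, all lower in reporter-high cells: Jchain, Lyz2, Cd52 and Cd3e. Of all genes 30.9% were called in this comparison and 13.9% were called lower. The 4 arrays of each population did not overlap for the same 4 members, against 30.2% of all genes. The members' median log2 difference was -0.25, against -0.002 over all genes. The shares of members called in either direction and not overlapping are close to those of all genes and are no result about leukocyte genes as a class. All 4 calls were in 1 direction, a split that has no test of its own over 10 chosen genes.

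When reporter-high cells were set against Sca1- cells, 4 members were again called, all lower in reporter-high cells: Jchain, Lyz2, Cd52 and Ptprc. Of all genes 35.9% were called, 16.7% lower and 19.2% higher. The arrays did not overlap for 3 members (Ptprc, Lyz2 and Cd52), against 31.4% of all genes, and the members' median was -0.33 against -0.011. This comparison and the preceding one share the reporter-high arrays. Between reporter-dim and Sca1- cells, 1 member, Cd52, was called lower, against 13.9% of all genes called and 5.89% called lower. The arrays did not overlap for 1 member, Ptprc, against 13.4% of all genes.

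No member was called in the other 3 comparisons. For reporter-dim against Sca1+ reporter-negative cells limma called 0 members, with 2 at an unadjusted p under 0.05 (Cd52 and Cd3e), against 1.51% of all genes called. For reporter-high against reporter-dim cells it called 0, with 2 at an unadjusted p under 0.05 (Jchain and Lyz2), against 1.42%. For Sca1+ against Sca1- reporter-negative cells it called 0, with 1 at an unadjusted p under 0.05 (Cd3e), against 2.45%. Members whose arrays did not overlap numbered 1 in each of these comparisons: Cd52 against 10.6% of all genes, Lyz2 against 11.8%, and Csf1r against 5.46%. Few genes of any kind were called here, and with 4 arrays a population these counts do not show that the members were alike.

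**Figure D2:**
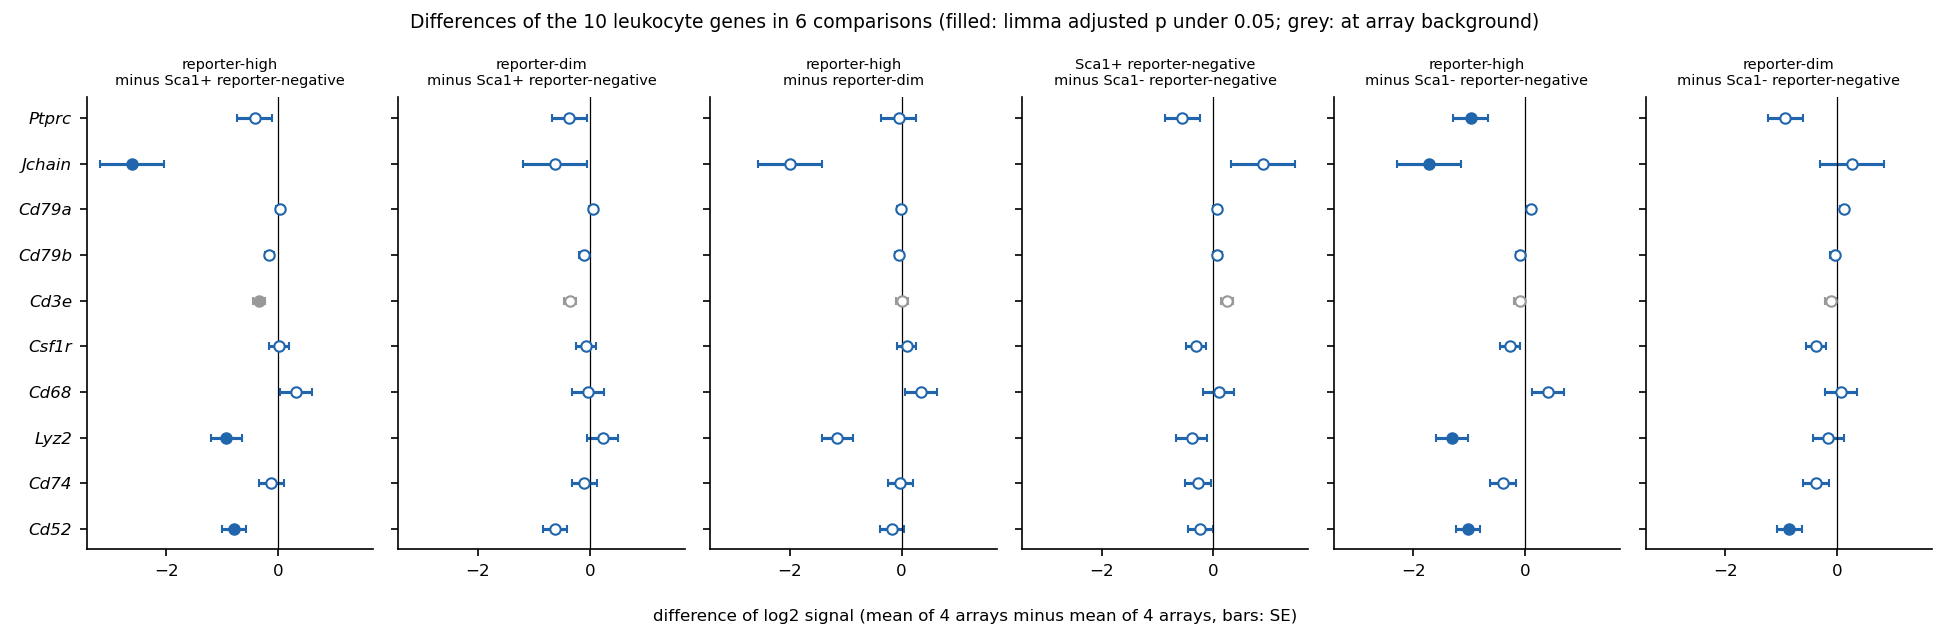
Difference in log2 signal of each gene in the 6 comparisons (horizontal axis, mean of 4 arrays minus mean of 4 arrays, bars are SE); filled points have a limma adjusted p under 0.05 and grey points mark Cd3e, which was at array background. Jchain, Lyz2 and Cd52 have filled points left of 0 in both comparisons of reporter-high with reporter-negative cells, while Cd79a and Cd79b lie near 0 in all 6.

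Among the general leukocyte genes, Ptprc (CD45, chr1:138062859-138175756 on GRCm38.p6, the build of all coordinates here) had signals, for mice 1 to 4, of 346, 331, 573 and 620 in reporter-high cells, 338, 340, 615 and 655 in reporter-dim cells, 576, 709, 349 and 905 in Sca1+ reporter-negative cells and 793, 1166, 679 and 961 in Sca1- cells. All 4 Sca1- arrays exceeded every reporter-high and reporter-dim array, whereas the Sca1+ reporter-negative arrays overlapped all other populations. It was above the highest control on 15 of 16 arrays. The margin was small on the reporter-dim array of mouse 1, 338 against 337. On the Sca1+ reporter-negative array of mouse 3 Ptprc read 349 against 396. Of all probe sets, 59.3% to 81.5% were above the highest control, depending on the array. Ptprc thus had a low signal, near background on some arrays, in cells gated against its protein. Its log2 difference of reporter-high minus Sca1- cells was -0.97 ± 0.31 (SE, adjusted p = 0.0238), lower in 4 of 4 mice, and -0.69 without mouse 2 (adjusted p = 0.208). The largest difference by mouse, -1.82 for mouse 2, set a male array against a female one. Among reporter-high and reporter-dim arrays Ptprc read 331 to 346 in male and 573 to 655 in female ones. In each reporter-negative population the male array lay within the range of the female ones. The difference of reporter-dim minus Sca1- cells, -0.93 ± 0.31, missed the threshold (adjusted p = 0.0622) and passed it with mouse as a block (adjusted p = 0.027). For reporter-high minus Sca1- cells, leaving out the array of reporter-high mouse 1 or 2 or of Sca1- mouse 2 or 4 also took the adjusted p above the threshold, to at most 0.0783. The order of populations was reporter-high, reporter-dim, Sca1+ reporter-negative, Sca1-, and no neighbours in it differed by the test.

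Cd52 (chr4:134093538-134095073), a short lipid-anchored glycoprotein of lymphocytes and other leukocytes, read 408, 395, 541 and 383 in reporter-high cells, 510, 371, 581 and 489 in reporter-dim cells, 613, 877, 811 and 684 in Sca1+ reporter-negative cells and 572, 865, 1404 and 815 in Sca1- cells. All reporter-high arrays lay below all arrays of both reporter-negative populations. Cd52 fell in reporter-high cells, with a difference of -0.79 ± 0.22 from Sca1+ reporter-negative cells (1.73-fold lower, adjusted p = 0.0132) and of -1.02 ± 0.22 from Sca1- cells (2.03-fold lower, adjusted p = 0.00205), in 4 of 4 mice each time. It also fell in reporter-dim cells, with a difference of -0.85 ± 0.22 from Sca1- cells (adjusted p = 0.019, lower in 4 of 4 mice), where the arrays overlapped, 581 being the highest reporter-dim array and 572 the lowest Sca1- array. Reporter-dim and Sca1+ reporter-negative arrays did not overlap, and the difference of -0.62 ± 0.22 had an adjusted p of 0.133, or 0.0277 with mouse as a block. Without mouse 2 the difference of reporter-high from Sca1+ reporter-negative cells was -0.67 and no longer called (adjusted p = 0.118), and that from Sca1- cells was -0.98 and called (adjusted p = 0.0251). The difference of reporter-dim from Sca1- cells was then -0.73 (adjusted p = 0.181), and it also missed the threshold without the reporter-dim array of mouse 2 alone (highest adjusted p = 0.0685) and without mouse 4 (adjusted p = 0.119). Without mouse 4 the difference of reporter-high from Sca1+ reporter-negative cells had an adjusted p of 0.0909.

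Among the B lineage and plasma cell genes, Jchain (chr5:88519809-88527897), the antibody joining chain, read 490, 772, 530 and 1396 in reporter-high cells, 2037, 1363, 3831 and 6574 in reporter-dim cells, 2538, 4411, 3232 and 11032 in Sca1+ reporter-negative cells and 1040, 3728, 4408 and 1941 in Sca1- cells. Every reporter-high array lay below every Sca1+ reporter-negative array, and within each population the highest array was 2.85 to 4.82 times the lowest. Jchain fell in reporter-high cells, with a difference of -2.62 ± 0.57 from Sca1+ reporter-negative cells (6.15-fold lower, adjusted p = 0.00308, in 4 of 4 mice). That call held in each of the 16 fits that left out 1 array, with differences of -2.93 to -2.19, and without mouse 2 (-2.66, adjusted p = 0.0289). The difference from Sca1- cells was -1.72 ± 0.57 (3.30-fold lower, adjusted p = 0.0283, in 4 of 4 mice), but the arrays overlapped. This call was lost without mouse 2 (-1.54, adjusted p = 0.143), without mouse 3 (-1.28, adjusted p = 0.197) and without any 1 of 5 arrays, those of reporter-high mice 1, 2 and 3 and Sca1- mice 2 and 3. The difference from reporter-dim cells was -1.99 ± 0.57, lower in 4 of 4 mice, with an adjusted p of 0.0901, or 0.0144 with mouse as a block. The other populations ranked reporter-dim above Sca1- cells (difference 0.27 ± 0.57, adjusted p = 0.811) and Sca1+ reporter-negative above reporter-dim cells (reporter-dim minus Sca1+ reporter-negative -0.63 ± 0.57, adjusted p = 0.58), neither beyond the spread.

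The signals of the B cell receptor genes did not share the Jchain pattern. How much of these low signals was B cell RNA and how much array background was not tested. Cd79a (chr7:24897497-24901858), whose product is the Ig-alpha signalling chain, read 570 to 674 in reporter-high, 600 to 629 in reporter-dim, 571 to 610 in Sca1+ reporter-negative and 517 to 626 in Sca1- cells. Cd79b (chr11:106311341-106314562), the Ig-beta chain, read 347 to 438, 370 to 405, 399 to 449 and 367 to 430 in the same order, and was above the highest control on 14 of 16 arrays. The populations overlapped for both genes in all 6 comparisons. In reporter-high against Sca1+ reporter-negative cells Cd79a differed by 0.04 (95% interval -0.10 to 0.19) and Cd79b by -0.16 (95% interval -0.32 to 0.01, adjusted p = 0.155). Without mouse 2 the Cd79b difference was -0.25 and called (adjusted p = 0.0424). The Jchain interval for the same comparison, -3.84 to -1.40, did not meet either. Over the 16 arrays the deviations of log2 signal from the population mean correlated at 0.006 between Jchain and Cd79a and at 0.003 between Jchain and Cd79b, against 0.557 between Cd79a and Cd79b. These correlations describe 16 arrays that share mice and preparations.

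Cd3e (chr9:44998735-45009663), a chain of the T cell receptor complex, read 187, 197, 204 and 201 in reporter-high cells, 206, 178, 208 and 192 in reporter-dim cells, 206, 241, 301 and 259 in Sca1+ reporter-negative cells and 183, 221, 221 and 221 in Sca1- cells. None of these was above the highest control of its array. Although limma called it lower in reporter-high cells, against the Sca1+ cells without reporter (adjusted p = 0.0193), no fold is given, since neither population had a measured level. The call was lost without mouse 2 (adjusted p = 0.0874). The highest control itself read 262, 265, 234 and 327 on the reporter-high arrays, against 350, 488, 396 and 335 on the Sca1+ reporter-negative arrays.

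Among the macrophage genes, Lyz2 (chr10:117277541-117282272), which encodes lysozyme of macrophages and other myeloid cells, read 1816, 1615, 2311 and 2546 in reporter-high cells, 4929, 3020, 5660 and 4973 in reporter-dim cells, 3496, 4640, 3152 and 4346 in Sca1+ reporter-negative cells and 7559, 6531, 4901 and 2665 in Sca1- cells. All 4 reporter-high arrays lay below every other array. Its probe set is of a class that may also bind related transcripts, and the related lysozyme Lyz1 cannot be told apart from it here. Lyz2 fell in reporter-high cells, with a difference of -0.92 ± 0.28 from Sca1+ reporter-negative cells (1.89-fold lower, adjusted p = 0.0208) and of -1.31 ± 0.28 from Sca1- cells (2.47-fold lower, adjusted p = 0.00196), in 4 of 4 mice each time. The difference from reporter-dim cells, -1.15 ± 0.28 and lower in 4 of 4 mice, missed the threshold (adjusted p = 0.055) and passed it with mouse as a block (adjusted p = 0.034). The reporter-dim, Sca1+ reporter-negative and Sca1- populations did not differ from one another by the test. Without mouse 2 the difference from Sca1+ reporter-negative cells was -0.72 and not called (adjusted p = 0.131), and that from Sca1- cells was -1.07 and called (adjusted p = 0.0282). The call against Sca1+ reporter-negative cells was also lost without mouse 1 (adjusted p = 0.051) and without any 1 of 4 arrays, those of reporter-high mice 1 and 2 and Sca1+ reporter-negative mice 2 and 4 (adjusted p of at most 0.0666).

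The other macrophage genes had no called difference. Csf1r (chr18:61105572-61131139), the receptor on which macrophage survival depends, read 806, 559, 711 and 736 in reporter-high cells, 516, 542, 941 and 698 in reporter-dim cells, 652, 716, 643 and 732 in Sca1+ reporter-negative cells and 1121, 827, 747 and 733 in Sca1- cells. Every Sca1+ reporter-negative array lay below every Sca1- array, if only by 732 against 733 at the nearest pair, and the difference of Sca1+ reporter-negative minus Sca1- cells was -0.30 ± 0.18 (adjusted p = 0.601). Cd68 (chr11:69664213-69666170), a lysosomal glycoprotein of macrophages, read 1021, 1627, 2555 and 2225 in reporter-high cells, 992, 1063, 1691 and 1999 in reporter-dim cells, 1241, 1505, 1342 and 1530 in Sca1+ reporter-negative cells and 1352, 1756, 1439 and 868 in Sca1- cells. Alone among the macrophage members its mean was highest in reporter-high cells, by 0.42 ± 0.29 over Sca1- cells (95% interval -0.19 to 1.03, adjusted p = 0.283), where Lyz2 was lowest.

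Cd74 (chr18:60803849-60812652), the invariant chain that escorts MHC class II molecules, read 2740, 2713, 3320 and 4626 in reporter-high cells, 2751, 2544, 4589 and 3758 in reporter-dim cells, 3276, 4153, 2525 and 4610 in Sca1+ reporter-negative cells and 5431, 4245, 3750 and 3925 in Sca1- cells. The populations overlapped in all 6 comparisons, and the difference of reporter-high minus Sca1- cells was -0.39 ± 0.23 (95% interval -0.88 to 0.09, adjusted p = 0.198). Of 8 class II genes 0 were called by limma in any of the 6 comparisons, with 3 at an unadjusted p under 0.05 in reporter-high against Sca1- cells. Their differences there ran from -0.74 for H2-Ab1 to -0.04 for H2-Oa. H2-Eb1, a class II beta chain, averaged 3730 ± 1029 in reporter-high and 5576 ± 1180 in Sca1- cells (difference -0.59 ± 0.24, adjusted p = 0.0699).

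With mouse as a block, the counts of called members were 2 for reporter-dim against Sca1+ reporter-negative cells (Cd52 and Cd3e, against 14.0% of all genes), 2 for reporter-high against reporter-dim cells (Jchain and Lyz2, against 7.49%) and 2 for reporter-dim against Sca1- cells (Ptprc and Cd52, against 22.0%). In these fits, which take the arrays labelled mouse 2 as the same mouse, more genes of all kinds were called. Scaling the arrays to their hybridization controls gave all genes a median difference of 0.379 between the reporter-high and the Sca1+ reporter-negative population and of 0.388 between the reporter-high and the Sca1- population, against -0.002 and -0.011. Of the genes called in those comparisons 91.1% and 90.2% were then higher in reporter-high cells, against 55.0% and 53.4% in the deposited scaling. On that scale Jchain was called lower in both comparisons (-2.24, adjusted p = 0.00268, and -1.32, adjusted p = 0.0467), and Lyz2 and Cd52 against Sca1- cells (-0.91, adjusted p = 0.0167, and -0.62, adjusted p = 0.0376). The Ptprc difference from Sca1- cells was -0.57 and not called (adjusted p = 0.129). Cd79a was then called higher in reporter-high cells in both comparisons (0.42 and 0.51) and Cd68 against Sca1- cells (0.82, adjusted p = 0.0338).

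The wider leukocyte lists are described by counts of limma calls, to be read against the shares of all genes called: 16.7% lower and 19.2% higher in reporter-high against Sca1- cells, and 13.9% lower against Sca1+ reporter-negative cells. All list counts, medians and mean signals hold for the deposited scaling. Hybridization-control scaling raised the median difference of all genes in both comparisons. List values on that scale are not given, so the number of genes lower in reporter-high cells depends on the scaling. Of 14 general leukocyte genes besides Ptprc and Cd52, 7 were called lower in reporter-high than in Sca1- cells and 0 higher, with a list median of -0.33, and 12 had a negative difference. The 7 calls became 4 when mouse 2 was left out. The share of all genes called in that smaller fit is not given. Falls in list counts without mouse 2, here and below, are therefore no result about these lists. Lcp1, the leukocyte actin-bundling protein, averaged 691 ± 81 in reporter-high and 1656 ± 330 in Sca1- cells (-1.25 ± 0.21, adjusted p = 0.000369). Cd53, a leukocyte tetraspanin, averaged 743 ± 126 and 1638 ± 382 (-1.13 ± 0.26, adjusted p = 0.0036). Itgb2, the common beta chain of leukocyte integrins, was above the highest control on 1 of 4 reporter-high and 3 of 4 Sca1- arrays, with means of 214 ± 50 and 474 ± 170. Without mouse 2 the differences were -1.12 for Lcp1 (adjusted p = 0.00465), -0.94 for Cd53 (adjusted p = 0.0464) and -0.76 for Itgb2, which was then not called (adjusted p = 0.0602). Against Sca1+ reporter-negative cells 2 of the 14 were called lower, a share near that of all genes, and 0 higher.

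Of 20 macrophage and dendritic cell genes 7 were called lower in reporter-high than in Sca1- cells and 0 higher, with a list median of -0.37, and 17 had a negative difference. Leaving out mouse 2 took the 7 calls to 5. Against Sca1+ reporter-negative cells 1 of the 20 was called lower, below the share of all genes. Ctss, a lysosomal protease that trims the invariant chain, averaged 4105 ± 2241 in reporter-high and 20957 ± 4864 in Sca1- cells (-2.49 ± 0.32, adjusted p = 6.1e-05). Its deviations from the population mean followed the colon epithelium list (r = 0.96 over 16 arrays) more than the macrophage list that holds it (0.34). Cybb, the catalytic subunit of the phagocyte oxidase, averaged 405 ± 87 and 784 ± 246 (-0.92 ± 0.23, adjusted p = 0.00588). Clec7a, the beta-glucan receptor, averaged 330 ± 30 and 573 ± 140 (-0.76 ± 0.16, adjusted p = 0.00169). With mouse 2 left out, the differences were -2.21 for Ctss (adjusted p = 0.00343), -0.73 for Cybb (adjusted p = 0.0409) and -0.60 for Clec7a (adjusted p = 0.0318). The deviations of Cybb followed the macrophage list, to which it belongs, at 0.81 and the epithelial list at 0.10.

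The lymphocyte and granulocyte lists held few calls. Of 16 B and plasma cell genes, 1 was called higher and 1 lower in reporter-high than in Sca1- cells, both below the shares of all genes. Against Sca1+ reporter-negative cells, where Jchain was called lower, limma called 0 of the 16. The list median there was -0.08, with 1 gene at an unadjusted p under 0.05. Xbp1, a secretory-cell transcription factor used by many cell types besides plasma cells, averaged 26774 ± 2286 in reporter-high and 20581 ± 1514 in Sca1- cells (0.38 ± 0.09, adjusted p = 0.00304). Tnfrsf17, the plasma cell receptor BCMA, was above the highest control on 1 of 4 reporter-high and 0 of 4 Sca1- arrays, so no fold is given. Of 15 T and NK cell genes 1 was called higher, Thy1, which fibroblasts also express, with 2483 ± 151 in reporter-high and 796 ± 390 in Sca1- cells (1.75 ± 0.22, adjusted p = 4.96e-05). In the arrays of the other mice, without mouse 2, the differences were 0.36 for Xbp1 (adjusted p = 0.0189) and 1.71 for Thy1 (adjusted p = 0.00406), and Tnfrsf17 was not called (adjusted p = 0.193). Of 11 granulocyte and mast cell genes limma called 0, with 1 at an unadjusted p under 0.05, and 6 were at or below the highest control on all 16 arrays. S100a9, a neutrophil calcium-binding protein, averaged 468 ± 24 in reporter-high and 603 ± 187 in Sca1- cells (-0.32 ± 0.19, adjusted p = 0.21).

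**Figure D3:**
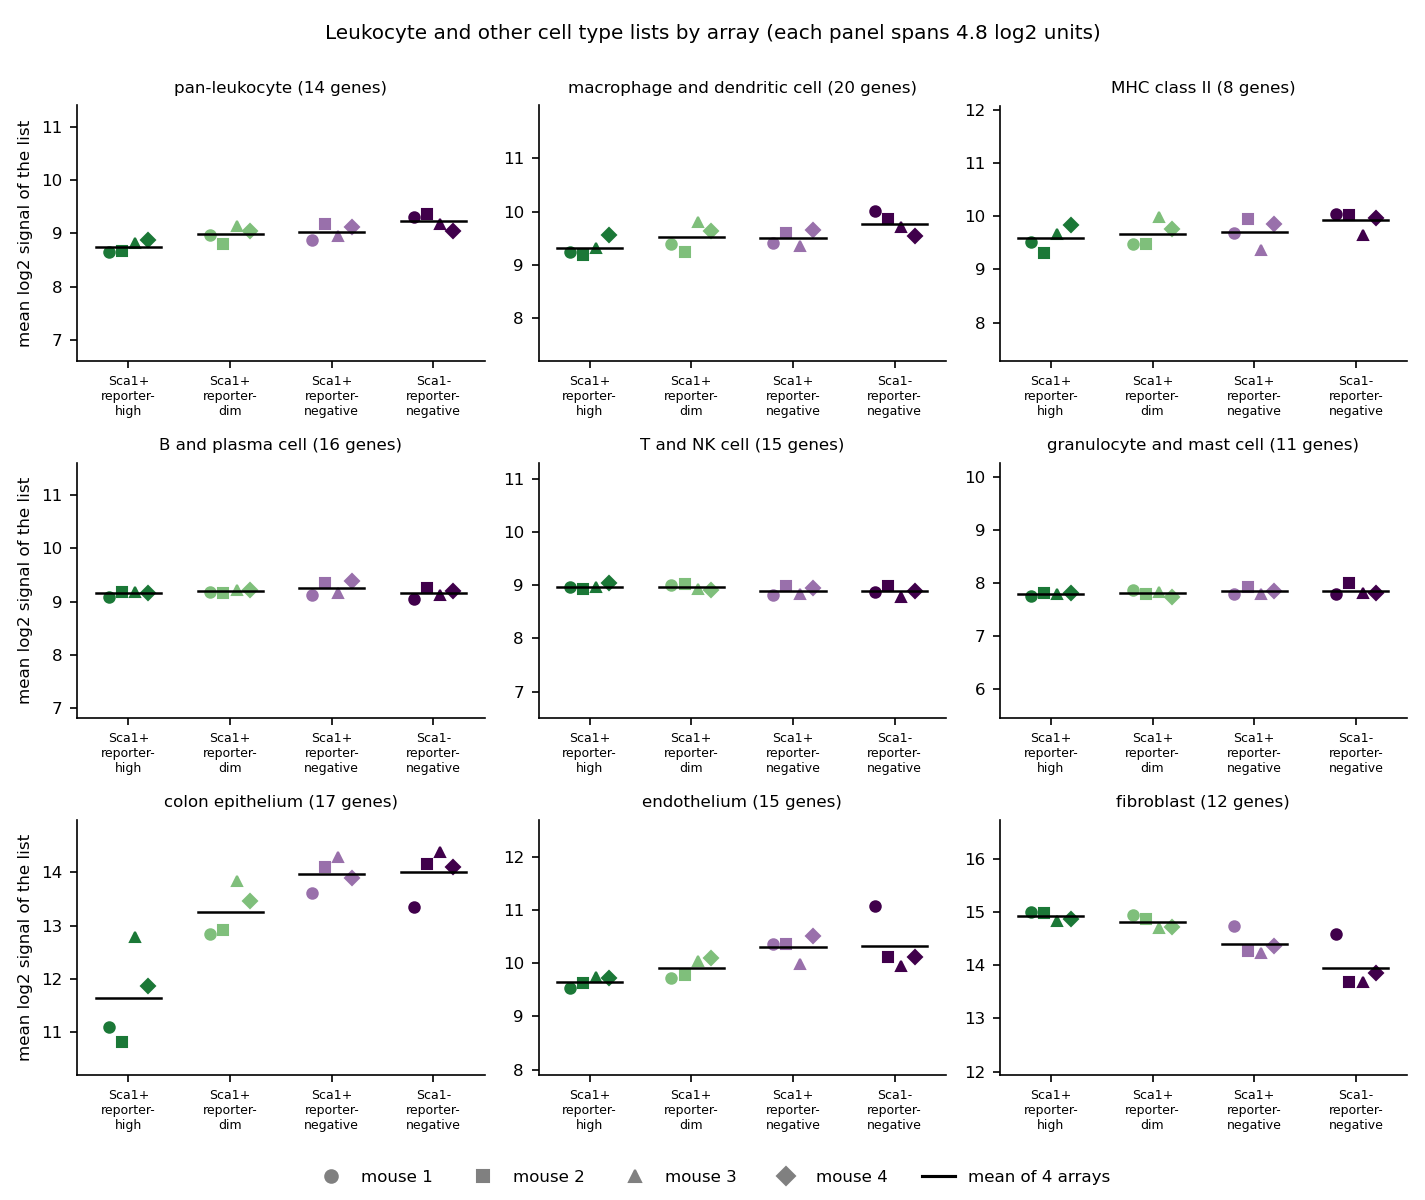
Mean log2 signal of each gene list (vertical axis, every panel spans the same number of log2 units) on the 16 arrays, with the mouse as point shape and the mean of 4 arrays as a line. The epithelial list spans more than any leukocyte list, with means of 11.64 for reporter-high and 14.00 for Sca1- arrays, against 7.79 and 7.86 for the granulocyte list.

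The plot of list levels sets the size of the leukocyte differences beside those of the other gated cell types. The general leukocyte list had a mean log2 signal of 8.75 ± 0.11 in the reporter-high population, 8.99 ± 0.14 in the reporter-dim one, 9.03 ± 0.14 in the Sca1+ reporter-negative one and 9.22 ± 0.14 in the Sca1- one. The macrophage list averaged 9.32 ± 0.17, 9.52 ± 0.26, 9.5 ± 0.14 and 9.77 ± 0.20 in the same order. All 17 epithelial genes were called lower in reporter-high than in Sca1- cells, with a list median of -2.38, and all 17 without mouse 2. Of 15 endothelial genes 11 were called lower and 1 higher, with a median of -0.75, and of 12 fibroblast genes 0 were called lower and 11 higher, with a median of 0.80. When mouse 2 was left out, the calls were 6 lower and 1 higher for endothelial genes, and 8 higher for fibroblast genes.

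Arrays of a population also differed among themselves, and the members fell into unlike groups by how they did so. Likeness was the Pearson correlation over 16 arrays of the deviations of log2 signal from the population mean, given without a test, since arrays share mice and amplification. Ptprc and Cd74 deviated together (0.825), as did Csf1r and Cd74 (0.726), Lyz2 and Cd74 (0.689) and Cd68 and Lyz2 (0.651). Jchain correlated at 0.602 with Ptprc, 0.573 with Cd68 and 0.474 with Cd74. Cd52 followed none of these 4 macrophage genes by more than 0.305, and its highest correlation with a member was 0.597, with Cd3e, which is at background.

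**Figure D4:**
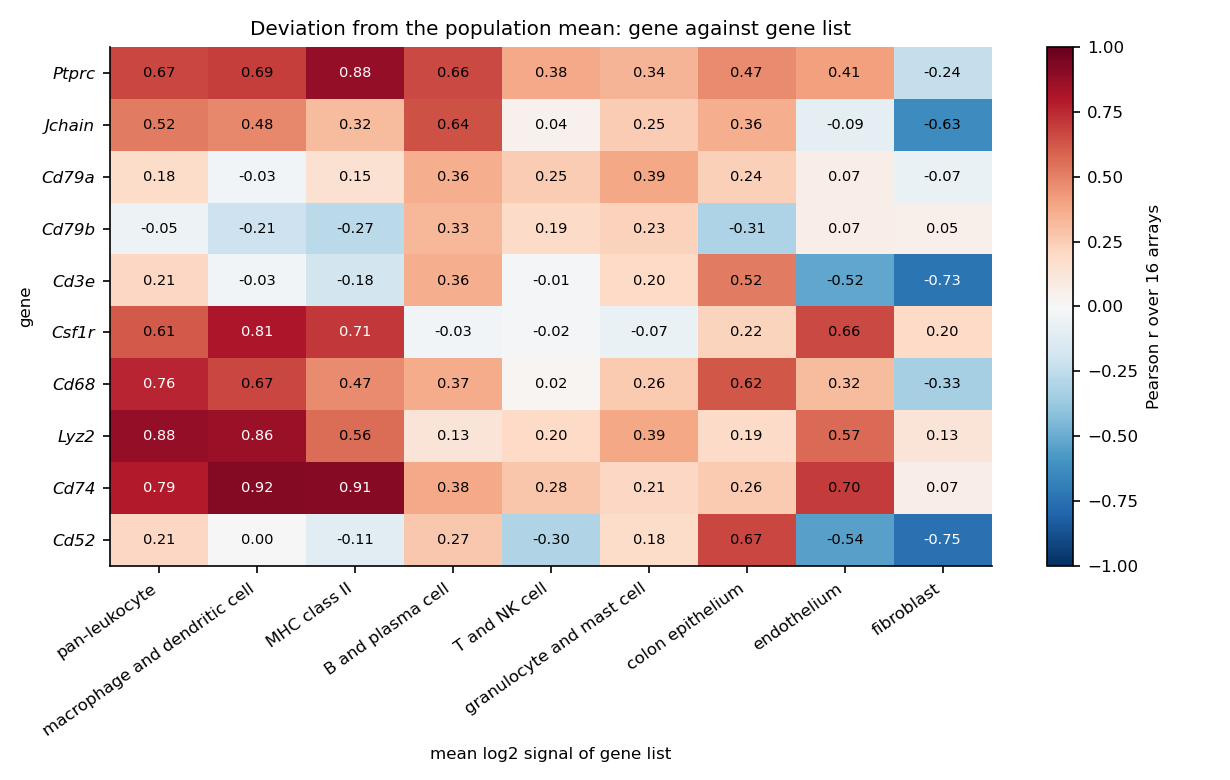
Pearson correlation, over 16 arrays, of each gene's deviation from its population mean with that of the mean log2 signal of each list (columns), from -1 in blue to 1 in red. Cd74, Lyz2 and Csf1r are most like the macrophage or general leukocyte list, Ptprc is most like the class II list, and Cd52 is most like the epithelial list and opposite to the fibroblast list.

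Against the lists in the plot of correlations, Cd74 followed the macrophage list at 0.92 and the class II list at 0.91, Lyz2 the general leukocyte list at 0.88 and the macrophage list at 0.86, and Csf1r the macrophage list at 0.81. Ptprc followed the class II list at 0.88. Cd68 followed the general leukocyte list at 0.76, the macrophage list at 0.67 and the epithelial list at 0.62. Jchain followed the B and plasma cell list at 0.64, general leukocyte genes at 0.52 and the fibroblast list at -0.63. Cd52 followed the epithelial list at 0.67 and the fibroblast list at -0.75, with 0.21 for general leukocyte genes and 0.00 for macrophages. Within populations the Cd52 signal thus ran closer to the epithelial list than to any leukocyte list, and the part of epithelial RNA in its differences was not tested.

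The single genes most like each member were taken from 8336 genes with a mean signal above the median of all genes, predicted genes and small RNA genes left out. Cd74 was most like H2-Eb1 (0.933), H2-Aa (0.932) and H2-Ab1 (0.918), all class II chains. Ptprc was most like H2-Aa (0.882), the cytokine receptor chain Csf2rb (0.855) and H2-Eb1 (0.854). Lyz2 was most like Fcer1g (0.939), the signalling chain of Fc receptors, and Csf1r like Lilrb4a (0.892), an inhibitory receptor, C1qa (0.869), a complement component made by macrophages, and the cytokine gene Il1b (0.841). The nearest genes of these 4 members thus included leukocyte genes, 3 of 3 for Ptprc and Cd74 and 1 of 3 for Csf1r and Lyz2 by the lists used here.

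For the other members the nearest genes were in none of the leukocyte lists. Leukocyte genes with a mean signal below the median of all genes were not candidates. Jchain was most like Igkj1 (0.930), a probe set named for an immunoglobulin kappa joining segment, which is a plasma cell transcript though outside the lists used. The next nearest genes of Jchain were Plekhj1 (0.923) and Gng12 (0.902). Igkj1 read 3115, 3270, 4799 and 10100 in reporter-high cells, 11352, 7723, 20032 and 25993 in reporter-dim cells, 12381, 28436, 20923 and 40061 in Sca1+ reporter-negative cells and 5032, 20237, 20267 and 9519 in Sca1- cells. Its ordering of the arrays within populations is close to that of Jchain, with the mouse 4 array highest in the 3 Sca1+ populations for both genes. Igkj1 fell in reporter-high cells, with a difference of -2.31 ± 0.52 from Sca1+ reporter-negative cells (adjusted p = 0.00383), or -2.03 without mouse 2 (adjusted p = 0.0438). Its differences of reporter-high from Sca1- cells (-1.33, adjusted p = 0.0599) and from reporter-dim cells (-1.63, adjusted p = 0.121) were not called. The immunoglobulin genes of the B and plasma cell list were not called by limma in reporter-high against Sca1+ reporter-negative cells. Their differences were -0.10 for Igha (adjusted p = 0.505), -0.14 for Ighm (adjusted p = 0.583) and -0.61 for Iglv1 (adjusted p = 0.183). Cd52 was most like Cideb (0.925), Tmem98 (0.911) and Tesk2 (0.910), Cd68 like Egr2 (0.872), Cd79a like Fbll1 (0.881) and Cd79b like Tmem8b (0.845). Cideb, a lipid droplet protein, fell in reporter-high cells, with a difference of -1.40 ± 0.32 from Sca1+ reporter-negative cells (adjusted p = 0.0041), not called without mouse 2 (-1.20, adjusted p = 0.0536), and of -1.36 ± 0.32 from Sca1- cells (adjusted p = 0.00382, or 0.0423 without mouse 2). Cd3e had Scgb3a1 (0.925) as nearest gene, but its own deviations are those of background signals. A correlation as high as that of Jchain and Igkj1 was thus also found for a gene with no measured level.

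**Figure D5:**
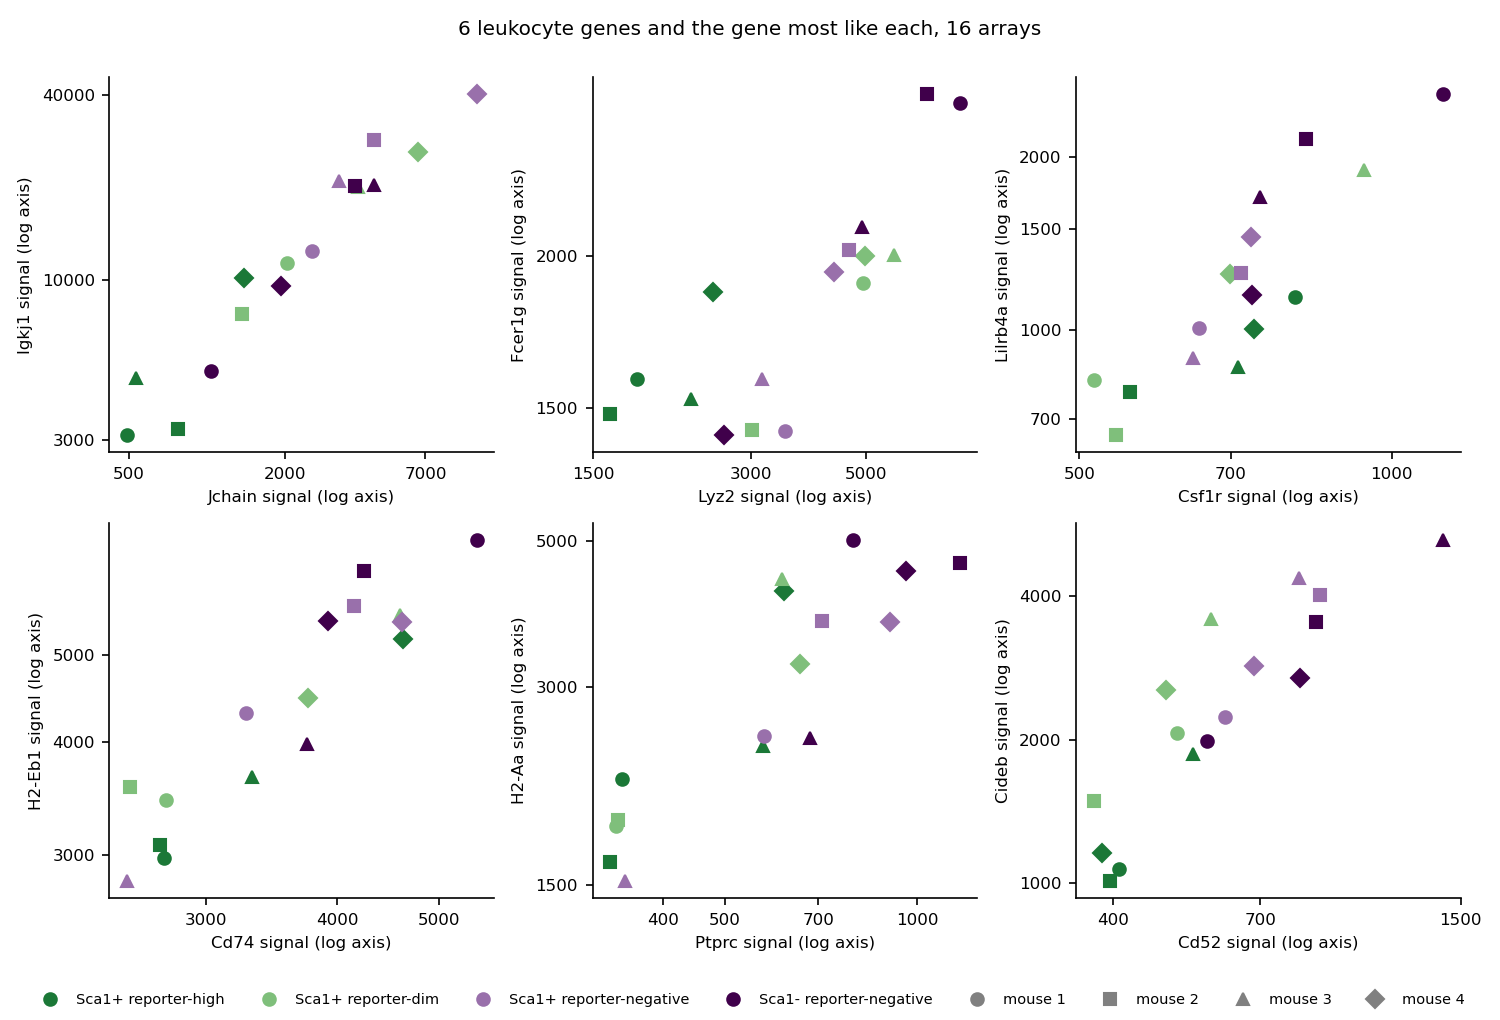
Signals of 6 members (horizontal log axes) and of the gene most like each (vertical log axes) on 16 arrays, with population as colour and mouse as shape. Jchain and Igkj1 are both lowest on the reporter-high array of mouse 1 (490 and 3115) and both highest on the Sca1+ reporter-negative array of mouse 4 (11032 and 40061).

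The plot of pairs sets Jchain beside Igkj1, Lyz2 beside Fcer1g, Csf1r beside Lilrb4a, Cd74 beside H2-Eb1, Ptprc beside H2-Aa and Cd52 beside Cideb. For Cd74 and Ptprc the Sca1+ reporter-negative array of mouse 3 lay at the low end beside reporter-high and reporter-dim arrays of mice 1 and 2, with Cd74 at 2525 and Ptprc at 349. On the same array Jchain, at 3232, was the second lowest of its population, and Cd52, at 811, the second highest.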

How the data were processed

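RNA of 16 sorted samples was hybridized to HT MG-430 PM arrays. The deposited values are scores: each probe set has mean 0 and SD 1 over the 16 arrays, and the submitters' processing notes name Affymetrix Expression Console 1.1 as the tool of the authors. How background, summary and normalization were handled is not given in the sources used here. Fold changes cannot be read from scores, so the whole-number signals behind them were recovered for 45141 of 45141 probe sets (score error within 1e-09; signals 58 to 155937), a step checked on 1000 simulated probe sets, all recovered. The planned test was kept on the log2 of these signals.

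limma 3.58.1 (R 4.3.3) was fitted with 1 mean per population over all 16 arrays and 17097 genes, each by its probe set of highest mean, with Benjamini-Hochberg adjustment and a threshold of 0.05. A second fit covered 28898 probe sets of 1 gene symbol; 551 had several and 15588 none. Other values came from pandas 2.3.3, numpy 2.4.6 and numba 0.67.0 under Python 3.11.15, and plots from matplotlib 3.10.9. The number of arrays limits the precision, and p-values measure the spread between these samples.

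The members and gene lists were chosen with earlier results of these data known. Besides the members, up to 3 genes per leukocyte list with the largest called difference between reporter-high and Sca1- cells were named, or the gene of highest mean signal where none was called. The immunoglobulin genes Igha, Ighm and Iglv1 were also named, after seeing the data. Of the 3 genes most like each member, all are named for Ptprc, Cd74, Csf1r, Cd52 and Jchain, and the first for the others. The labels give the same mouse numbers in each population. Deviations from population means correlated at 0.466 between arrays of mouse 1, -0.0594 of mouse 2, 0.447 of mouse 3 and 0.109 of mouse 4, so the fit with mouse as a block is given where it changed a call. Alternatives covered the block, left-out mice and arrays, a filter on dim genes, scaling, background, probe set choice and the arrays fitted.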

Additional observations from a re-analysis of the deposited data

Results flagged for a closer look

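Of 40 sets of 4 arrays tested, 1 member in 1 population had an array far from the other three: Cd3e read 183 on the Sca1- array of mouse 1, against 221 on each of the others. The gap was the whole range of the group, above the critical value of Dixon's test for 4 samples. Chance gives such a gap in about 1 in 20 groups, and Cd3e was at or below the highest control on all 16 arrays.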

How the results depend on the processing

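No called difference changed sign. With mouse as a replicate block the members called numbered 2 for reporter-dim against Sca1+ reporter-negative, 2 for reporter-high against reporter-dim and 2 for reporter-dim against Sca1- cells (0, 0 and 1 without it), and 14 over the member probe sets and comparisons, against 9. A block for Eif2s3y signal, chosen after seeing the data, gave 1, 2 and 2. Leaving out 1 mouse or array gave 2 to 4 for reporter-high against Sca1+ reporter-negative, 0 to 1 for reporter-dim against Sca1+ reporter-negative, 0 to 2 for reporter-high against reporter-dim, 2 to 4 for reporter-high against Sca1-, 0 to 3 for reporter-dim against Sca1- cells and 0 to 4 across all populations. The 0 across populations came without mouse 2. Keeping 14160 genes above the highest control on at least 4 arrays gave 1 for reporter-high against reporter-dim, and fitting only the 2 populations gave 1 there and 0 for reporter-dim against Sca1-. Hybridization-control scaling gave 2, 2 and 0 for reporter-high against Sca1+ reporter-negative, reporter-high against reporter-dim and reporter-dim against Sca1- cells, and the deposited scores gave 0 for the last. Why these counts moved was not tested. Shares of all genes called are given only for the fits with mouse as a block. The counts of the other alternatives are therefore no result about the members as a class. Quantile normalization, the mean over probe sets and subtraction of the lowest 1 percent signal kept each count within 1.5 times. Genes near the control, Cd3e above all, limit what signal over background can show.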
